A study of Aedes albopictus with 6 samples.

Results

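Circular RNAs (circRNAs) from genes for GTPase-activating proteins and guanine nucleotide exchange factors were examined in the Asian tiger mosquito, Aedes albopictus. A host gene was included when its deposited product name held "GTPase-activating", "nucleotide exchange factor", "guanine nucleotide-releasing", "dedicator of cytokinesis" or "TBC1 domain" and not "kinase". The rule found 42 of 4166 host genes, with 103 circRNAs and 1029 back-splice junction reads, the reads that cross the joint closing a circle. The mosquitoes were untreated virgins of the Foshan laboratory strain, 2 days old, and RNA came from whole bodies. Females formed 3 pools of 30 animals and males another 3, and RNase R had been used to digest linear RNA before sequencing. The 6 libraries held 13322 to 17197 junction reads in females and 21624 to 27257 in males.

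Small GTPases of the Ras, Rab, Arf and Rap families are molecular switches. Exchange factors turn them on by letting GDP leave so that GTP can bind, and GTPase-activating proteins (GAPs) turn them off by speeding the hydrolysis of GTP. Through these switches cells shape actin, adhere, grow axons and move vesicles. A circRNA forms when a downstream splice donor joins an upstream acceptor, so it mostly holds exons of its host, and its reads do not measure the linear mRNA. In whole bodies, fewer cells of a type and less RNA per cell cannot be told apart.

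No member passed the test of sex. Of the 42 host genes, 11 had enough reads to be tested with edgeR's quasi-likelihood test on reads summed per host gene, and 0 of them passed at a Benjamini-Hochberg adjusted p of 0.05, where 4.83% of all 870 tested host genes did (2.53% higher in females and 2.3% higher in males). DESeq2 likewise called 0 members. At an unadjusted p of 0.05 the count was 1 of 11, with 18.2% over all tested host genes, and that 1 is not among the 6 tested hosts described below. The libraries of the sexes did not overlap for 4 of the 11, against 24.8% of all tested. The log2 fold change, female over male throughout, lay below 0 for 8 of the 11 with a median of -0.70, and over all tested host genes the median was -0.05. That median over members was -0.26 without female replicate 3, -0.43 without male replicate 2 and -0.47 without female replicate 2, with 14 members tested in each case. Of the 42, 29 are described below by name or in group sums, 6 of them tested. The tested hosts had 27 or more reads. The other 31 had at most 40 and carry no test. Of single circRNAs, 7 members' circles were tested and 0 passed, where 6.64% of all 738 tested circRNAs did, and at an unadjusted p of 0.05 the count was 0 of 7, with 19.6% over all. A test of choice among the circRNAs of a host could be made for 1 member, which did not pass in edgeR's diffSpliceDGE at the adjusted or unadjusted p of 0.05. Of all 75 hosts in that test, 0% passed, and 6.67% at the unadjusted p. Simulated 4-fold changes over the same 870 host genes were recovered in 58% of cases and 2-fold changes in 18%. Smaller differences were thus mostly not detectable at this depth. In the choice test, simulated 4-fold shifts were recovered in 0% of cases and 16-fold shifts in 82.8%. Its result therefore cannot decide on shifts of 4-fold or less.

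**Figure D1:**
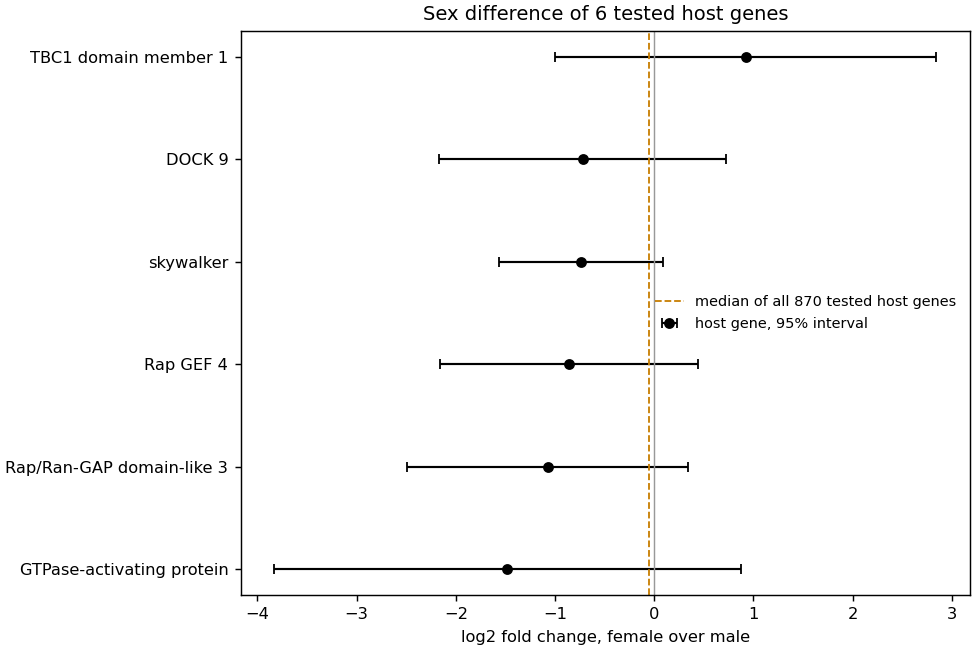
Log2 fold change (female over male) of 6 tested GAP and exchange factor host genes, with 95% confidence intervals from the edgeR fit and a dashed line at the median of all tested host genes. The 6 drawn are those described in the text and not all 11 that were tested. Each of the 6 intervals drawn holds 0.

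The members made up 0.816%, 0.762% and 0.676% of junction reads in female replicates 1, 2 and 3, and 0.911%, 0.841% and 0.972% in male replicates 1, 2 and 3. The lowest male library lay above the highest female one, but their 95% exact binomial intervals overlapped: 0.685% to 0.964% in female replicate 1 and 0.731% to 0.963% in male replicate 2. The libraries carry no molecular identifiers, so reads can be copies of 1 molecule and such intervals cover counting error only. With 3 libraries a side, a two-sided exact permutation test cannot go below p = 0.10, and none was run on this share. Summed levels of 28 host genes named for neuronal markers (6 of 7 marker terms found, with bruchpilot unmatched) were 118.8 to 136.6 in females and 174.1 to 185.6 in males, in junction reads per 10000 of the TMM-scaled library. The same sum over 24 muscle hosts was 31.6 to 35.9 in females and 38.1 to 51.3 in males. Of the 11 tested neuronal hosts, 7 had a log2 fold change below 0, as had 3 of the 4 tested muscle hosts. The 4 hosts named for testis markers had 1 read in females and 11 in males, and their levels overlapped. The part of any of these in the members' share was not tested.

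**Figure D2:**
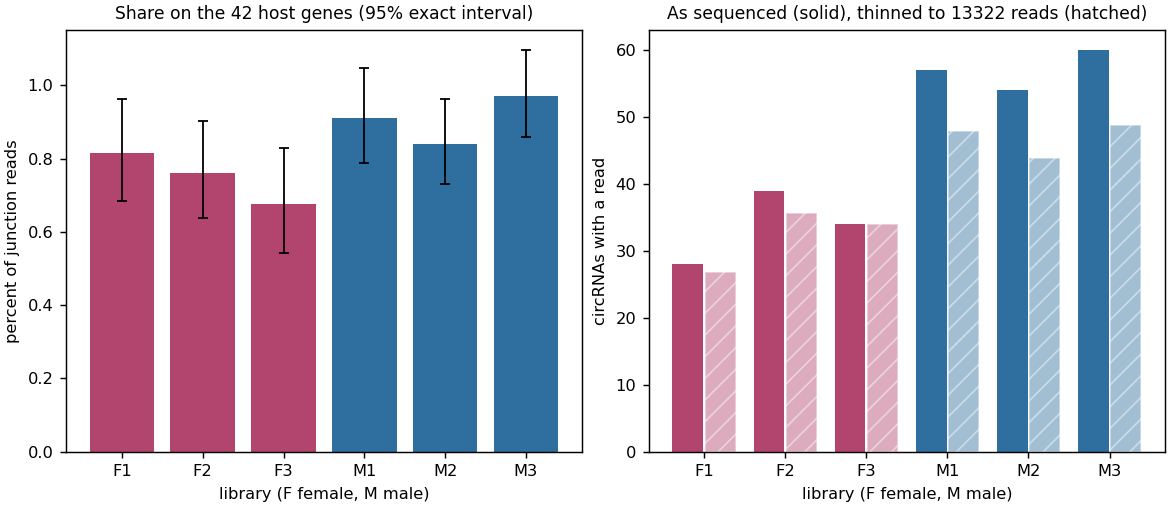
Left, share of junction reads on the 42 host genes in each library, in percent, with 95% exact binomial intervals, and right, the number of their circRNAs with a read, as sequenced (solid bars) and thinned to the smallest library (hatched bars). The 3 female libraries lie between 0.676% and 0.816% and the 3 male libraries between 0.841% and 0.972%.

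Of the 42 host genes, 29 had reads in both sexes, 4 in females only and 9 in males only. These counts are not adjusted for the deeper male libraries, and no such share over all host genes is given here. The female-only hosts had at most 3 reads and the male-only hosts at most 12. Just 11 hosts were seen in all 6 libraries, 7 in 1 library, and 18 had under 10 reads. More of the members' circRNAs were listed in males than in females: 28, 39 and 34 in the female libraries and 57, 54 and 60 in the male libraries. Thinned to 13322 reads, the depth of the smallest library, the expected numbers were 32.2 ± 4.71 in females and 46.9 ± 2.62 in males (SD, n = 3 each). The same thinning gave 2809 ± 201 circRNAs in females and 3540 ± 50.1 in males over the whole table. The excess in males was thus not limited to these hosts. Only circRNAs that reached 2 reads in some library are listed, so thinning does not undo a listing through the deeper male libraries.

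The rule did not use how circles are built. The members gave 2.45 circRNAs per host, against 1.97 over all host genes, and 57.1% of them gave more than 1, against 40.5%. Their genes were long, with a median of 140.1 kb against 65.8 kb over the 3875 host genes with a length in the table. Of the 103 circRNAs, 93 (90.3%) joined exon to exon, against 87.4% over all hosts. Their median spliced length was 790 bases, with quartiles of 399 and 1181, against 650 bases. Among exon-exon circRNAs, 28 (30.1%) spanned more than 10 kb of genome, against 23.8%. No test was run on these shares. Sequences are not shown, since no genome or protein table of these genes was used here.

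The dedicator of cytokinesis (DOCK) family, atypical exchange factors for Rac and Cdc42, gave 5 hosts and 143 reads. Their summed level was 10.6 ± 6.57 per 10000 in females and 13.38 ± 1.165 in males (SD, n = 3 each), with overlap. DOCK9 (LOC109420302), a Cdc42 exchange factor in mammals, had 1 circRNA with 7, 1 and 8 reads in females and 11, 20 and 11 in males. Its level was 3.70 ± 2.84 per 10000 in females and 5.96 ± 2.09 in males (SD, n = 3 each), with a log2 fold change of -0.72 and an adjusted p of 0.65 in edgeR. Leaving out female replicate 2 gave -0.24, female replicate 3 -1.29 and male replicate 2 -0.45, with adjusted p values in edgeR of 0.90, 0.43 and 0.91. DOCK9-like (LOC115269356) had 18, 2 and 0 reads in females and 9, 6 and 5 in males, the female reads standing mostly in replicate 1. A second DOCK9-like host, LOC109419769, had no reads in females and 4, 2 and 6 in males. With 3 reads put in for the female libraries together, its pooled male level was 2.60-fold the female one. That ratio leaves out the error of the 12 male reads and is not a bound. The host had too few reads for the filtered test. Without the filter its log2 fold change had an SE of 2.15 and an adjusted p of 0.45 in edgeR. DOCK3 (LOC109411881), a neuronal Rac exchange factor in mammals, had 2, 6 and 3 reads in females and 4, 4 and 9 in males. DOCK1 had 5 reads in all, on 2 circles listed as intron-intron and without a spliced length.

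Exchange factors for Ras and Rap numbered 7 hosts with 144 reads. For 1 of the 7, LOC109430913 with 2 reads in male replicate 1, the table names 1 protein ras guanine nucleotide exchange factor P and gives the name transcription initiation factor TFIID subunit 1 to its others. As a group their summed level was 7.44 ± 5.70 per 10000 in females and 15.4 ± 1.3 in males (SD, n = 3 each), and every male library lay above every female one. Female replicate 2 stood at 13.7 and the other 2 female libraries at 2.48 and 6.17. No test was made of the sum, since the hosts were grouped with results known. Rap guanine nucleotide exchange factor 4 (LOC109423294), whose mammalian counterpart is switched on by cyclic AMP, had 4, 12 and 3 reads in females and 20, 9 and 23 in males. Its level was 3.97 ± 2.73 in females and 7.44 ± 3.24 in males, and the log2 fold change of -0.86 had an adjusted p of 0.51 in edgeR. Without female replicate 2 it was -1.64, with an adjusted p of 0.21 in edgeR.

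Rap guanine nucleotide exchange factor 4 spans 85170109-85978591 on the plus strand of contig NW_021838153.1, in positions as the table gives them. Its leading circRNA, at 85846832-85881492, holds 462 spliced bases over a span of 34660 bases. That circle had 4, 11 and 3 reads in females and 10, 5 and 13 in males, which gave a log2 fold change of -0.01 and an adjusted p of 0.99 in edgeR. The other 7 circles of the gene had 1 read in females and 24 in males. Of these 7, 6 were seen in males only, with 18 reads in all. Among all 103 member circRNAs, 43 were seen in males only and 13 in females only. No such share over all circRNAs is given here. Of the 7, 3 began at 85520462, and the longest of them spanned 326516 bases.

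Rap guanine nucleotide exchange factor 2-like (LOC115254977), an activator of Rap1 by its mammalian counterpart, had 0, 4 and 1 reads in females and 4, 13 and 11 in males. Rap guanine nucleotide exchange factor 2 (LOC109402099) had 0, 3 and 3 reads in females and 2, 7 and 0 in males. Guanine nucleotide-releasing factor 2-like (LOC109428492) is named for an exchange factor that acts on Rap1. Its 4 circRNAs together had 0, 1 and 0 reads in females and 3, 5 and 6 in males. The sexes did not overlap in the read numbers of guanine nucleotide-releasing factor 2-like, at 1 read against 14. Ras-specific guanine nucleotide-releasing factor 2-like had 3 reads, all in female replicate 2. Among the remaining exchange factors, DBS-like (LOC109407731), named for a Cdc42 exchange factor of mammals, had 0, 2 and 2 reads in females and 0, 2 and 7 in males over 4 circRNAs. Rich (LOC109404733), part of a Rab6 exchange factor in Drosophila, had 2 reads, both in female replicate 3, and the Arf exchange factor GBF1 had 2, both in male replicate 2.

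Ras and Rap GAPs, grouped by name, came from 3 hosts with 32 reads. GTPase-activating Rap/Ran-GAP domain-like protein 3, with 57 reads, is counted with the remaining GAPs because of the word order of its name. For the 3 hosts the values are as follows. Their summed level was 1.53 ± 0.34 per 10000 in females and 3.55 ± 0.56 in males (SD, n = 3 each), without overlap. No test was made of this sum either. Rap1 GTPase-activating protein 1 (LOC109421495), which turns Rap1 off, had 3, 2 and 2 reads in females and 6, 0 and 4 in males. The host named probable Ras GTPase-activating protein (LOC109401709) had no reads in females and 2, 7 and 3 in males. With the same 3 reads put in for females, its pooled male level was 2.60-fold the female one, again not a bound. Its 3 circles lay far apart in a gene of 543635 bases, at 3.17, 158 and 537 kb from the gene start, and each was seen in males only. Without a filter its adjusted p in edgeR was 0.45. Ral GTPase-activating protein subunit beta had 3 reads, all in male replicate 3.

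Hosts whose product name holds "TBC1 domain" or "rab GTPase-activating", grouped here as Rab GAPs by name, numbered 5 with 48 reads. Skywalker, whose product name lacks these words, is counted with the remaining GAPs. The 5 hosts had a summed level of 4.24 ± 1.22 per 10000 in females and 4.13 ± 0.23 in males (SD, n = 3 each), with overlap. TBC1 domain family member 1 (LOC109415075), a regulator of glucose transporter traffic in mammalian muscle, had 6, 5 and 4 reads in females and 3, 4 and 5 in males. Read numbers overlapped, but scaled levels did not: 3.26 ± 0.40 per 10000 in females and 1.68 ± 0.25 in males (SD, n = 3 each). The log2 fold change was 0.92, with a 95% interval of -1.0 to 2.85 and an adjusted p of 0.67 in edgeR. Its 2 circles went opposite ways, with 14 reads in females and 7 in males for 1, and 1 and 5 for the other. Host genes named for ovary markers (6 hosts) summed to 16.2 to 26.7 in females and 5.80 to 13.6 in males, and 11 midgut hosts to 12.4 to 22.9 in females and 2.72 to 7.05 in males. Vitellogenin receptor, vasa, oskar and nanos matched no host. Just 2 of the ovary hosts and 1 of the midgut hosts were tested, the latter with a log2 fold change of 6.33. The neuronal and muscle sums given above were higher in males. The part of these tissues in the level of TBC1 domain family member 1 was not tested. Whacked, a regulator of tracheal tubes in Drosophila, had 0, 0 and 1 reads in females and 2, 3 and 3 in males. TBC1 domain family member 9-like had no reads in females and 4, 1 and 2 in males. The Arf GAPs were GIT2 (LOC109417816), with 0, 0 and 3 reads in females and 0, 0 and 2 in males, and an Arf GAP 1 host with 3 reads, all in females. These 2 hosts summed to 1.49 ± 2.07 per 10000 in females and 0.26 ± 0.45 in males (SD, n = 3 each), with overlap.

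The remaining GAPs by name, 4 hosts with 233 reads, had a summed level of 12.9 ± 3.15 per 10000 in females and 24.5 ± 2.79 in males (SD, n = 3 each), without overlap. Skywalker alone held 147 of these 233 reads. No test was made of the sum, since the hosts were grouped with results known. Skywalker (LOC109398534), a TBC-domain Rab GAP that limits the sorting of synaptic vesicle proteins through endosomes in Drosophila, had the most reads of any member, 147. It had 10, 18 and 13 reads in females and 29, 37 and 40 in males. Its level was 8.97 ± 2.43 in females and 14.96 ± 0.83 in males, and the sexes did not overlap. This corresponds to a log2 fold change of -0.74, with a 95% interval of -1.56 to 0.08 and an adjusted p of 0.34 in edgeR. The summed neuronal markers given above were also higher in every male library, with 7 of their 11 tested hosts below 0. Their part in the values of skywalker was not tested.

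Skywalker's 9 circRNAs split into 1 abundant circle and a set of rare ones. The gene lies at 72755729-72962535 on the minus strand of contig NW_021839020.1. The abundant circle, at 72815181-72815664 with 406 spliced bases, had 10, 13 and 10 reads in females and 14, 22 and 31 in males. Its level was 7.02 ± 0.77 in females and 8.86 ± 2.38 in males, which overlapped, with a log2 fold change of -0.34 and an adjusted p of 0.77 in edgeR. Without male replicate 1 it was -0.61, without male replicate 3 -0.22 and without a filter on low counts -0.65, with adjusted p values in edgeR of 0.67, 0.90 and 0.54. The other 8 circles together had 0, 5 and 3 reads in females and 15, 15 and 9 in males, without overlap. Of these 8, 6 were seen in males only, with 24 reads, beside 43 of all 103 member circRNAs. Of the 8, 4 share the position 72756869 and pair it with 4 other sites over spans of 4678 to 58795 bases, and these 4 had 3 reads in females and 27 in males. None of the 8 had enough reads to be tested. As with Rap guanine nucleotide exchange factor 4, rare circles can be listed through the deeper male libraries alone. The part of this in the split was not tested. The abundant circle has the span and spliced length of circles listed at a pair of hosts with an unrelated product name. Without it the log2 fold change of the gene was -1.65, with an adjusted p of 0.28 in edgeR, and this value rests on the rare circles.

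GTPase-activating Rap/Ran-GAP domain-like protein 3 (LOC115263581) had 5, 2 and 6 reads in females and 10, 16 and 18 in males, so the sexes did not overlap. Its level was 2.97 ± 1.73 per 10000 in females and 6.15 ± 1.16 in males (SD, n = 3 each), a log2 fold change of -1.08 with a 95% interval of -2.50 to 0.35 and an adjusted p of 0.44 in edgeR. Of its 6 circles, 4 share the position 354169, with 10 reads in females and 24 in males. The circle at 364968-377468 had 0, 1 and 1 reads in females and 3, 4 and 7 in males. The host named only GTPase-activating protein (LOC109415018) had 0, 5 and 0 reads in females and 3, 9 and 10 in males. Its log2 fold change of -1.48 (adjusted p = 0.53 in edgeR) became -5.65 (adjusted p = 0.13) without female replicate 2, which held all 5 female reads, and -0.90 (adjusted p = 0.74) without female replicate 1.

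**Figure D3:**
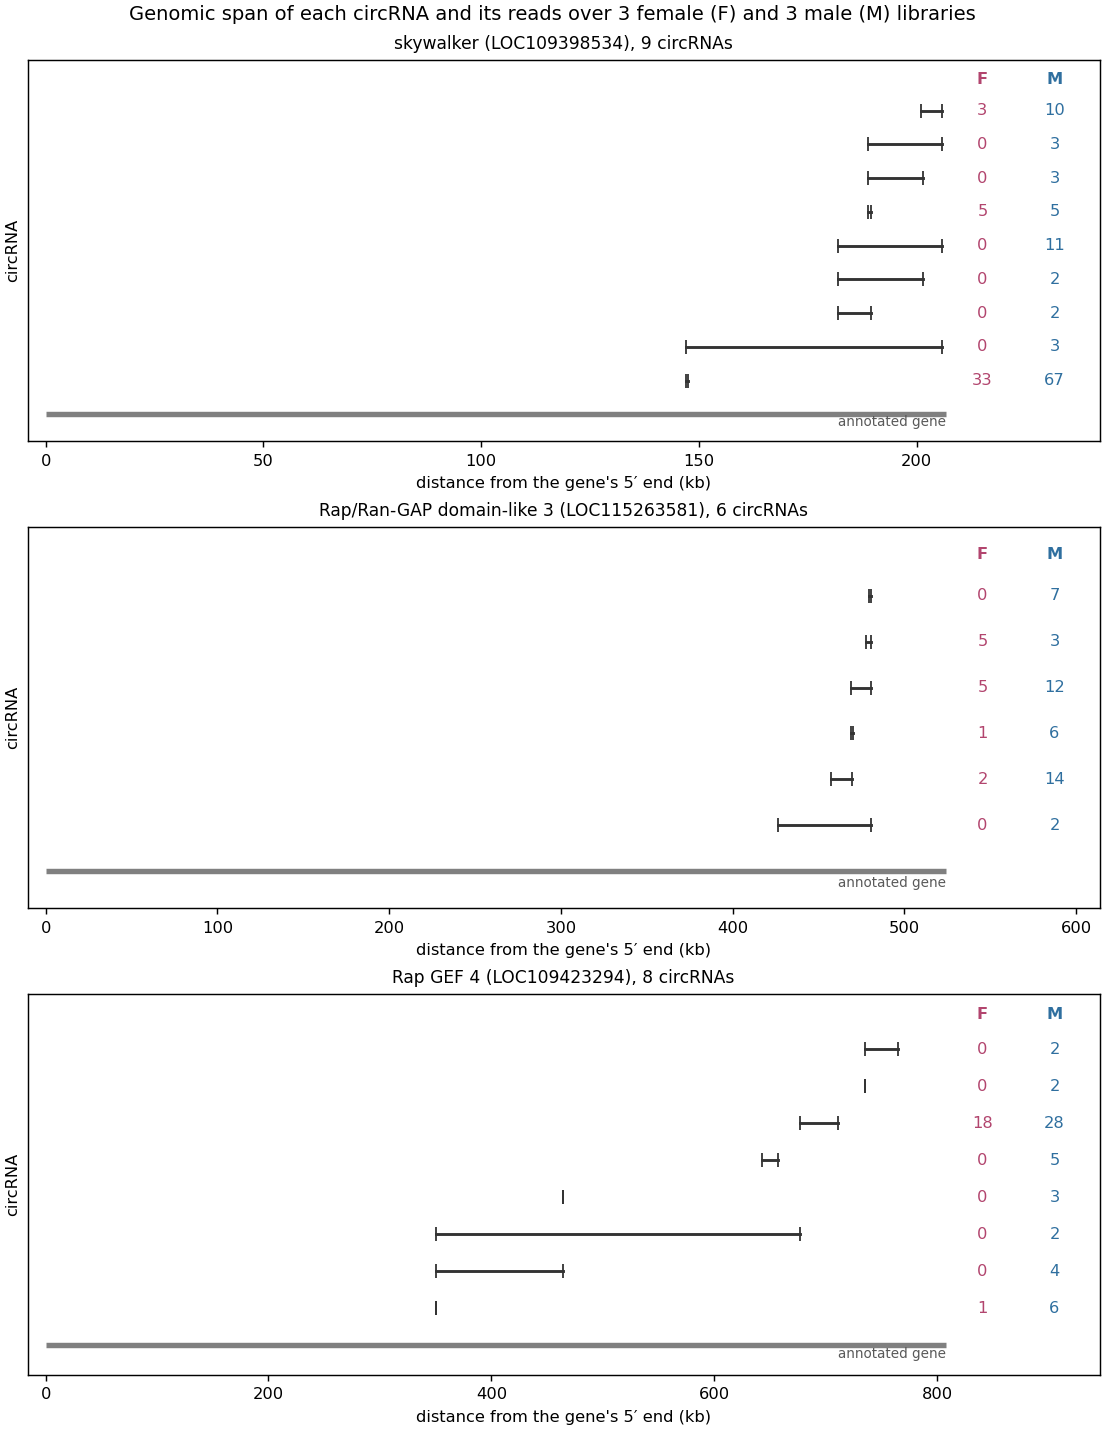
CircRNAs of skywalker, GTPase-activating Rap/Ran-GAP domain-like protein 3 and Rap guanine nucleotide exchange factor 4, drawn as bars along the distance from the 5′ end of the gene in kb, with the junction reads over the 3 female (F) and 3 male (M) libraries beside each bar. Bars that line up at an end use the same splice position, as in 4 circles of skywalker.

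**Figure D4:**
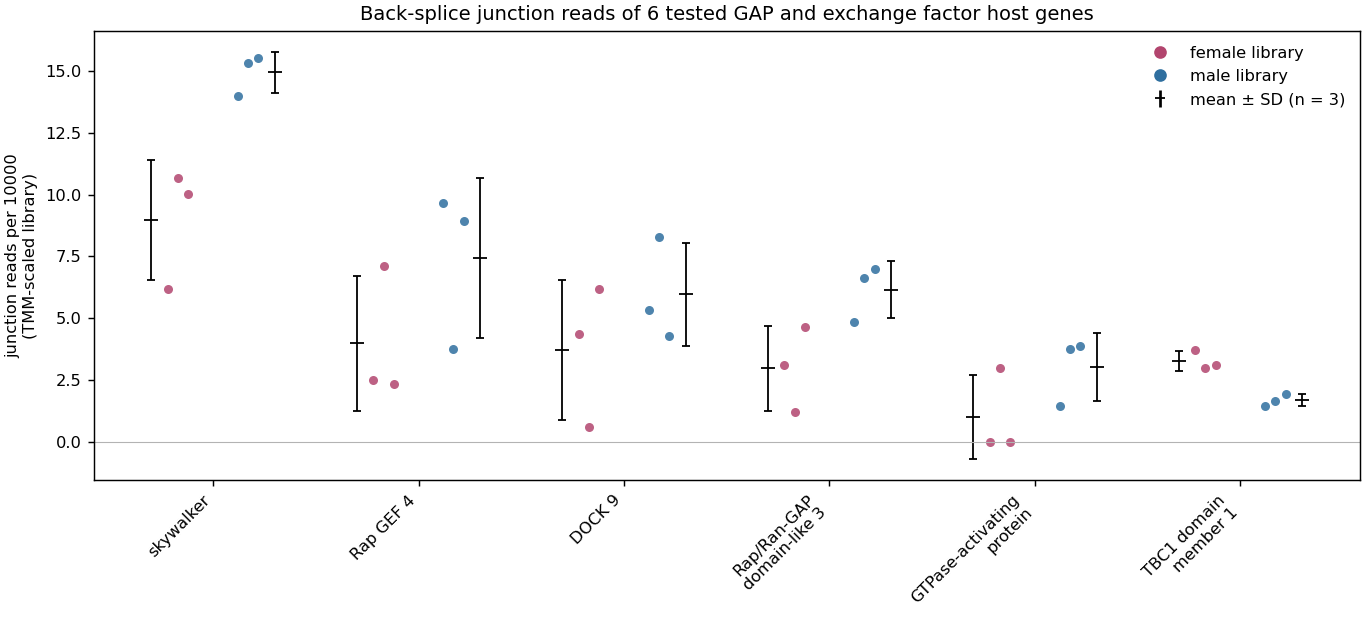
Level of 6 tested GAP and exchange factor host genes in every library, in junction reads per 10000 of the TMM-scaled library, with female libraries to the left of male ones and bars for the mean and SD of 3 libraries. Skywalker and TBC1 domain family member 1 lie without overlap in opposite directions, with means of 8.97 in females and 14.96 in males for skywalker and of 3.26 in females and 1.68 in males for the other.

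Several members come in like-named pairs with circles of nearly the same size. Among the hosts described here, in 3 pairs with the same product name, leaving out "-like", 3 circles of 1 host matched a circle of the other within 3 bases of span and 1 base of spliced length. The circles of DOCK9 (319284-319772 on NW_021838509.1) and DOCK9-like (339449-339937 on NW_021838547.1) both spanned 488 bases with 399 spliced. Those of the pair of Rap guanine nucleotide exchange factor 2 hosts both spanned 994 bases. No sequence was compared, so a match in size does not show that hosts are copies of each other. How the authors' counting would split reads between copies is not given in the sources used here, so values of single hosts are uncertain.

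Summing each of these pairs left 0 of the 3 past the threshold. DOCK9 and DOCK9-like together had 25, 3 and 8 reads in females and 20, 26 and 16 in males, which gave a log2 fold change of -0.18 and an adjusted p of 0.91 in edgeR. The Rap guanine nucleotide exchange factor 2 pair had 0, 7 and 4 reads in females and 6, 20 and 11 in males, with -1.09 and an adjusted p of 0.52 in edgeR. The Rap guanine nucleotide exchange factor 4 pair had 4, 12 and 4 reads in females and 21, 9 and 26 in males, a log2 fold change of -0.88 and an adjusted p of 0.47 in edgeR. For DOCK9 the log2 fold change of the sum was nearer 0 than that of the single host, -0.72.

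**Figure D5:**
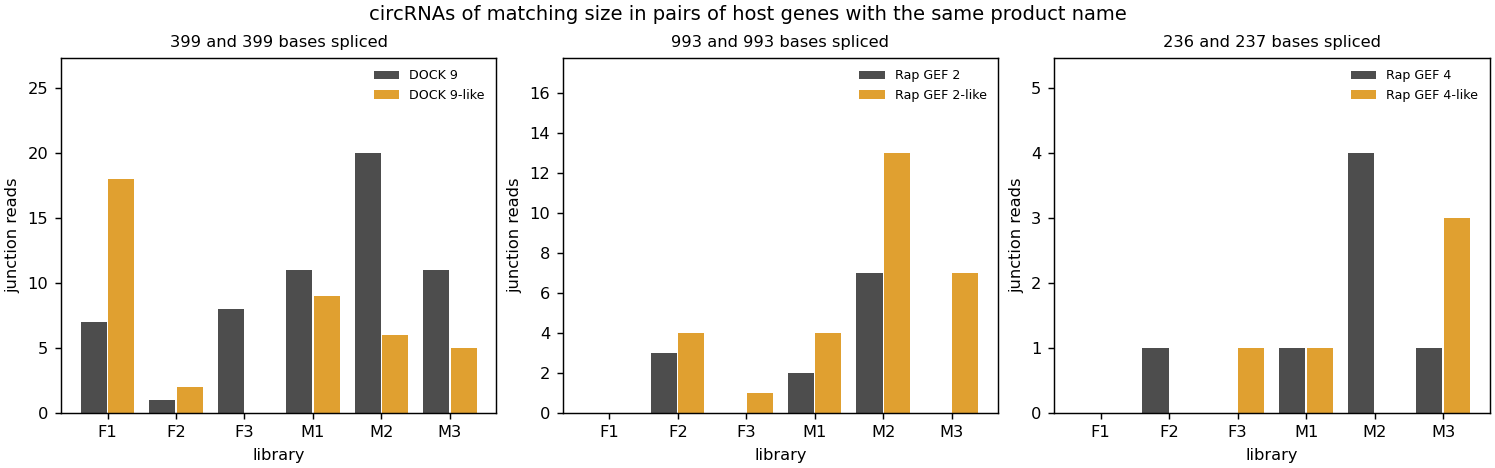
Junction reads per library of the matched circles in the 3 pairs of like-named host genes described here, female libraries to the left of male ones. The DOCK9-like circle has 18 of its 20 female reads in replicate 1, where the DOCK9 circle has 7.

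Other parts of the same switch were read from lists of product names. These lists do not cover whole classes, and 8 of 12 terms for small GTPases found a host gene. Among 37 host genes for small GTPases, 15 were tested, with 1 higher in females (2.53% over all tested) and 0 in males (2.3%). That gene was Rab-11B-like (LOC109415406), of a family that recycles membrane to the cell surface. It had 83, 63 and 58 reads in females and 34, 50 and 42 in males, which gave a log2 fold change of 1.32 (SE 0.25) and an adjusted p of 0.0015 in edgeR. The small GTPase hosts next in reads did not pass. Rab-5B-like (LOC109429880), an early endosome GTPase, had a level of 27.6 ± 2.55 per 10000 in females and 24.3 ± 4.76 in males, and Rab-11B (LOC109405114) 20.6 ± 6.50 in females and 18.8 ± 2.56 in males (SD, n = 3 each). The log2 fold change of Rab-11B was 0.14, with an adjusted p of 0.87 in edgeR. Rab-11B and Rab-11B-like share a product name, leaving out "-like", and their circles were not compared.

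Of 27 further regulators whose names lack the words of the rule, found by 11 of 26 terms, 8 were tested and 0 passed. The terms of this list include "regulator of G-protein signaling", which does not name a small GTPase, so its values are not limited to that switch. Arf-GAP domain and FG repeat-containing protein 1 (LOC109420062) had 19, 13 and 18 reads in females and 1, 5 and 14 in males, which gave a log2 fold change of 1.98 and an adjusted p of 0.070 in edgeR. Of 19 effector hosts, which bind the active GTPase and were found by 8 of 20 terms, 5 were tested and 0 passed. Formin-binding protein 1-like (LOC109422689) had the most reads of these, with a level of 26.3 ± 3.95 in females and 22.7 ± 3.97 in males. The median log2 fold change was 0.19 over the 15 tested small GTPases, 0.54 over the 8 further regulators and 0.84 over the 5 effectors, against -0.70 over the 11 tested members and -0.05 over all tested host genes. Summed levels of the small GTPases were 183.5 to 202 in females and 137.8 to 178.3 in males. Those of the further regulators were 63.5 to 77.9 in females and 45.6 to 56.1 in males, and those of the effectors 66.5 to 72.5 in females and 36.5 to 51.7 in males. In these sums every female library lay above every male one, whereas the members' share was higher in every male library. The sums are TMM-scaled levels and the share is a raw percent of all junction reads, so the measures are unlike. No test of that contrast was made.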

How the data were processed

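The deposited table holds raw counts, 1 whole number of junction reads for each circRNA in each library, per the file headers. Bowtie2 2.1.0 is named in the submitters' processing notes. The tool that called circRNAs and the genome build were not given in the sources used here. The 30393 lines of the table were collapsed to 8690 circRNAs, of which 502 without a host gene were left out of host sums, and each listed circRNA reached 2 reads in some library. A deposited table of normalised values was not used. Counts were summed per host gene and tested for sex by the quasi-likelihood F test of edgeR 4.0.16 (R 4.3.3), after filterByExpr (min.count 5, min.total.count 15) and TMM scaling, with Benjamini-Hochberg adjustment and calls at 0.05. circRNAs were tested alike, and choice among circRNAs with diffSpliceDGE and the Simes test. Confidence intervals are 95%. A level is the count divided by the TMM-scaled library total, times 10000. The tests were tested on simulated data. Sample titles and the sex label gave the groups. Libraries of 1 sex differed beyond counting noise, with a chi-square of 2.17 to 3.30 for each degree of freedom.

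Members, role groups and lists were chosen with earlier results of these data known. Named with values were members called, those not overlapping, the 6 most abundant, the 5 with most circRNAs, those with 10 or more reads in 1 sex only and the leader of each role group. Other members were named after their values were seen, and 13 members are counted in the totals but not reported here. In the name lists, "formin" and "sperm" were matched as whole words. Of the 42 host identifiers, 28 matched the RefSeq gene table of assembly AalbF5, whose coordinates were not used. The lengths left it unsettled if contig positions count from 0 or from 1. Alternatives were other scalings (RLE, none), DESeq2 1.42.0, other filters, a replicate block, exon-exon circRNAs only, leaving out circRNAs with a possible copy, and leaving out each library. Summing the like-named pairs was added after the data were seen.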

Additional observations from a re-analysis of the deposited data

How the results depend on the processing

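No member passed at an adjusted p of 0.05 in the host gene, circRNA or choice test under any alternative that gave a value, DESeq2 included. For the choice test that result cannot decide on shifts of 4-fold or less, as stated above. The 84 host values of the 6 members reported as tested kept their direction. Of 34 values of their circRNAs, 4 reversed, all of the circle of LOC109423294 at 85846832 (-0.01). It ran from -0.76 to 0.22 with 1 library left out, and gave 0.22, 0.21, 0.06 and 0.11 without female replicates 1 and 3 and male replicates 1 and 3. The cause was not tested.

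Over all host genes, 22 were higher in females, with 35 in DESeq2, 13 without a filter and 6 to 26 when 1 library was left out. Higher in males were 20, with 6 to 29 when 1 library was left out. Of circRNAs, 28 were higher in females, with 3 without a filter and 11 to 29 when 1 library was left out, and 21 were higher in males, with 12 to 26. Without male replicate 2 both host gene counts were 6 and the circRNA counts 11 higher in females and 12 in males. Host genes higher in males numbered 13 without male replicate 1, and circRNAs higher in females 16 without male replicate 1 and 14 without male replicate 3. Without a filter the median log2 fold change was -0.87 over all 42 members and -0.39 over all host genes.

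Samples of the 2 sexes share replicate numbers, but deviations of same-numbered samples correlated at 0.05, -0.01 and -0.01, so the numbers were not taken to pair samples. With the replicate block, 28 host genes were higher in females and 24 in males, with 28 and 21 circRNAs and 0 members. The total of 1029 reads over 42 hosts limits what could be detected.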
